A study of Mus musculus with 2 samples.

Results

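CXC chemokines are small secreted or membrane-anchored proteins that direct the movement of leukocytes, and the genes described here are 6 of these ligands (Cxcl1, Cxcl2, Cxcl9, Cxcl10, Cxcl12 and Cxcl16) and 4 of their receptors (Cxcr2, Cxcr3, Cxcr4 and Cxcr6). They were selected by gene symbol, and all 10 were found among the 32285 genes of the deposited matrices. The data are droplet single-cell RNA sequencing profiles of liver non-parenchymal cells, the preparation that is depleted of hepatocytes. One library came from Mfap2+/+ mice (wild type) and the other from Mfap2-/- mice (knockout), and both genotypes had received intraperitoneal carbon tetrachloride (CCl4), a hepatotoxin that scars the liver, for 8 weeks. The labels give no age, strain or number of mice for either library, and untreated animals are not analysed here. Mfap2 encodes microfibril-associated glycoprotein 1, a component of extracellular microfibrils. With 1 library per genotype there was no replicate spread and no test between genotypes, so genotype, animal and library preparation cannot be told apart. All intervals below are 95% intervals that cover counting error only.

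The ligands and receptors work in known pairs. Cxcl1 and Cxcl2 act on Cxcr2 and recruit neutrophils. Cxcl9 and Cxcl10 are induced by interferons and act on Cxcr3 of activated T and natural killer (NK) cells. Cxcl12, made by stromal cells, acts on Cxcr4 and retains or positions many kinds of leukocyte. Cxcl16 is made as a membrane protein that also takes up lipoprotein, is shed by the proteases Adam10 and Adam17, and acts on Cxcr6 of liver-resident lymphocytes.

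Cxcl1 and Cxcl2 lie close together on chromosome 5, at chr5:90891241-90893115 and chr5:90903871-90905938 on the plus strand of GRCm38. Cxcl9 and Cxcl10 lie on the minus strand of the same chromosome, at chr5:92321347-92328079 and chr5:92346638-92348889. Stretches upstream of these 4 start sites are shown because the members of each pair differed in their sender cells in the data below. They are from RefSeq on GRCm38.p6, 5′ to 3′ on the gene's own strand, as chr5:90891135-90891194 (plus strand), chr5:90903789-90903848 (plus), chr5:92328170-92328299 (minus) and chr5:92348980-92349109 (minus). Capitals mark matches to a kappaB motif spelled GGGNNNTTCC or to an interferon-stimulated response element (ISRE) spelled GAAANNGAAA, searched on both strands.
Cxcl1: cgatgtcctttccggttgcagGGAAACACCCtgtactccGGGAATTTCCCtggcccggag
Cxcl2: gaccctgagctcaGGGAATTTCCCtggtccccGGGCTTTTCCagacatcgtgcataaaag
Cxcl9: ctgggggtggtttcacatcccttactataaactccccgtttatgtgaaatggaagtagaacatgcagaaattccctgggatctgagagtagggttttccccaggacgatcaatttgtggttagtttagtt
Cxcl10: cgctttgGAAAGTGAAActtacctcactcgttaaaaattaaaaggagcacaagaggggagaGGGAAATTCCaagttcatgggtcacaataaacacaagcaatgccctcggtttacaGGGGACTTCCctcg

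The Cxcl1 and Cxcl2 windows each held 3 kappaB matches, of which 2 overlapped as a palindrome, and they shared the run GGGAATTTCCCTGG. It begins at -71 of Cxcl1 and at -97 of Cxcl2, counted from the start site. The Cxcl10 window held 2 kappaB matches, at -159 to -150 and -104 to -95, and 1 ISRE match, GAAAGTGAAA at -213 to -204. Among 32851 promoter windows of 300 bases, 5.56% held a kappaB match, 3.44% an ISRE match and 8.30% a match to an interferon-gamma activated site (GAS) spelled TTCNNNGAA. None of these 3 spellings occurred in the windows of Cxcl9, Cxcl12, Cxcr2, Cxcr3, Cxcr4 and Cxcr6. Windows were found for 9 of the 10 genes. A match describes letters and is not a bound site.

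The wild-type library held 11783 barcodes with a median of 4685 UMIs (unique molecular identifiers, tags that count single RNA molecules), and the knockout library 12872 with a median of 6511. Depth per cell was thus 1.39 times higher in the knockout. The 2 libraries shared 40 barcode sequences. Mfap2 itself had 257 UMIs in the wild-type library against 4, and its level in the mesenchymal class was 44.7 against 0.51 CPM (UMIs of a gene per 1000000 UMIs of a class). Cells were assigned to classes by raised marker genes, and 27 classes with at least 25 cells in each library are described, from 29 to 1183 wild-type and from 36 to 1766 knockout cells each. Mesothelial cells (18 and 5), basophils or mast cells (15 and 11) and platelets (8 and 6) were too few and enter no count or ranking below. Each class name below means only that its cells passed that marker panel, and a gate on markers cuts a range rather than a type. The type 1 innate lymphoid class and the class passing both the T and NK gates were led mainly by general NK genes such as Xcl1 and Klrb1b. RNA of other cell types was present in every class. The 8 hepatocyte markers summed to a median of 76.0 CPM in the other classes of the wild type and 201 CPM in the knockout, higher in 25 of 25 classes, and the 6 erythroid markers to 496 against 140, lower in 26 of 26.

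Levels in CPM come from 3′ ends and are not scaled by length, so genes are compared with one another only as counts. Beside each gene stands a class that should lack it, used as the background of free RNA: B cells for Cxcl1, Cxcl2, Cxcl9, Cxcl10, Cxcl12, Cxcr2 and Cxcr6, CD8 T cells for Cxcl16, neutrophils for Cxcr3 and cholangiocytes for Cxcr4. Of the 270 gene and class pairs, 107 had a CPM interval above that of the background class in both libraries. The background classes differed in depth per cell, and the part of depth in this count was not tested. Among the 27 classes, the one with the highest level was the same in both libraries for all 10 genes.

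**Figure D1:**
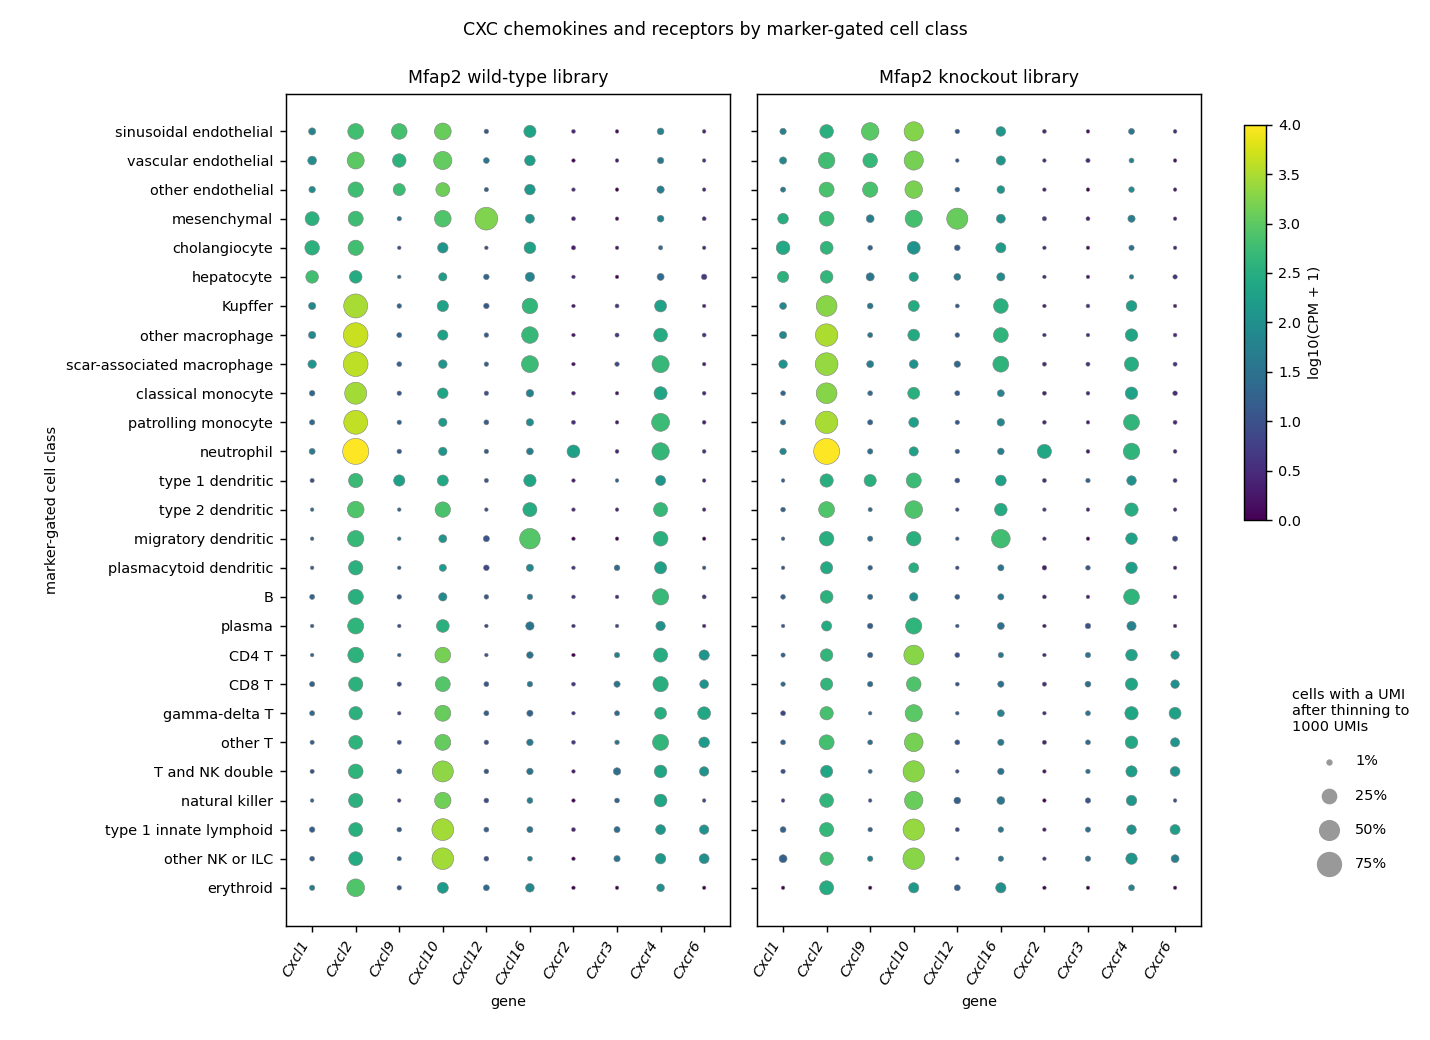
Level and detection of the 10 genes (columns) in 27 marker-gated classes (rows), wild type on the left and knockout on the right. Colour is log10(CPM + 1) and dot area follows the share of cells with a UMI after thinning each cell to 1000 UMIs; Cxcl2 in neutrophils, at 10974 and 9957 CPM, is the brightest point, and Cxcl12 and Cxcr2 each stand out in 1 class.

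Cxcl2, a ligand that draws neutrophils, was itself highest in neutrophils, at 10974 CPM in wild-type and 9957 in knockout cells (log2 ratio of knockout over wild type -0.14, interval -0.16 to -0.12). Macrophages followed, and those that were neither Kupffer nor scar-associated had 4662 and 3226 CPM (log2 -0.53, -0.55 to -0.51). Scar-associated macrophages, the Trem2 and Gpnmb class, had 3979 and 2302 CPM (log2 -0.79). The ranking of these classes was the same in both libraries, and each of these 3 was lower in the knockout.
Patrolling monocytes had 4089.8 and 3038 CPM, Kupffer cells, the resident macrophages of the sinusoid, 2962 and 1935, and classical monocytes 2833 and 1900.1. Over the 6 macrophage, monocyte and neutrophil classes the log2 ratio ran from -0.79 to -0.14, below 0 in 6 of 6. The B cell background had 350 and 353 CPM. The 10 neutrophil markers, by contrast, summed to a median of 1006 and 776 CPM in the classes other than neutrophils and were lower in the knockout in 25 of 26, and their part in the lower macrophage values was not tested.

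Nearly all neutrophils carried Cxcl2. The share with a UMI was 97.1% and 97.5%, wild type given first, and 92.4% and 92.1% once each cell was thinned to 1000 UMIs, at median depths of 2287 and 2784. B cells, at 3407 and 4846, had 70.6% and 65.3%, and 30.7% and 20.98% after thinning. T cells of no subclass had thinned shares of 25% and 29.5%, and CD4 T cells 32.6% and 20%, on either side of the B cell share. Kupffer cells kept a clear margin, with thinned shares of 78.3% and 58.0%. The 3 macrophage classes together nevertheless held 41.0% and 34.6% of all Cxcl2 UMIs, against 19.3% and 17.6% for neutrophils. Il1b, the interleukin-1 beta gene, had a UMI in 95.6% of wild-type and 98.9% of knockout neutrophils that had Cxcl2, and in 52.9% and 82.6% of the few that did not. These Il1b shares are from cells before thinning, and the part of depth in them was not tested.

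Cxcl1 had other senders than Cxcl2, although their promoters share letters as shown above. Its highest levels were in epithelial and mesenchymal cells: 361 and 258 CPM in cholangiocytes, the bile duct epithelium (log2 -0.48, -0.59 to -0.38), and 359 and 297 CPM in mesenchymal cells (log2 -0.27, -0.40 to -0.15). The hepatocyte class stood above both, at 607 and 377 CPM (log2 -0.69, -0.89 to -0.48), but few cells made this level. The 5 richest of its 60 wild-type cells held 94.9% of the UMIs, and the 5 richest of 135 knockout cells 73.9%. Leaving out those 5 cells per library turned the ratio to 0.77, and leaving out the 5% of cells with most UMIs to 1.09, so no direction is given for this class. Cholangiocytes leaned on few cells as well, with 41.1% and 21.2% in the 5 richest, and their ratio was 0.0039 without the 5% of cells with most UMIs.

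Cxcl1 was present at lower levels in 7 further classes above the B cell background of 19.1 and 15.2 CPM. Neutrophils were the only one of the 10 classes above background with more in the knockout, 43.6 against 73.0 CPM (log2 0.74, 0.45 to 1.04). Scar-associated macrophages had 119 and 105 CPM, and sinusoidal endothelial cells 66.0 and 60.3. In mesenchymal cells 52.2% and 50.4% of cells had a Cxcl1 UMI, and 25.6% and 14.0% after thinning, against 1.81% and 1.32% of thinned B cells. Among mesenchymal cells with Cxcl1, 96.9% and 93.8% also had Cxcl12, against 85.5% and 78.9% of those without, at median depths of 13280.0 and 17600.5 against 6478 and 8859.5 UMIs.

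**Figure D2:**
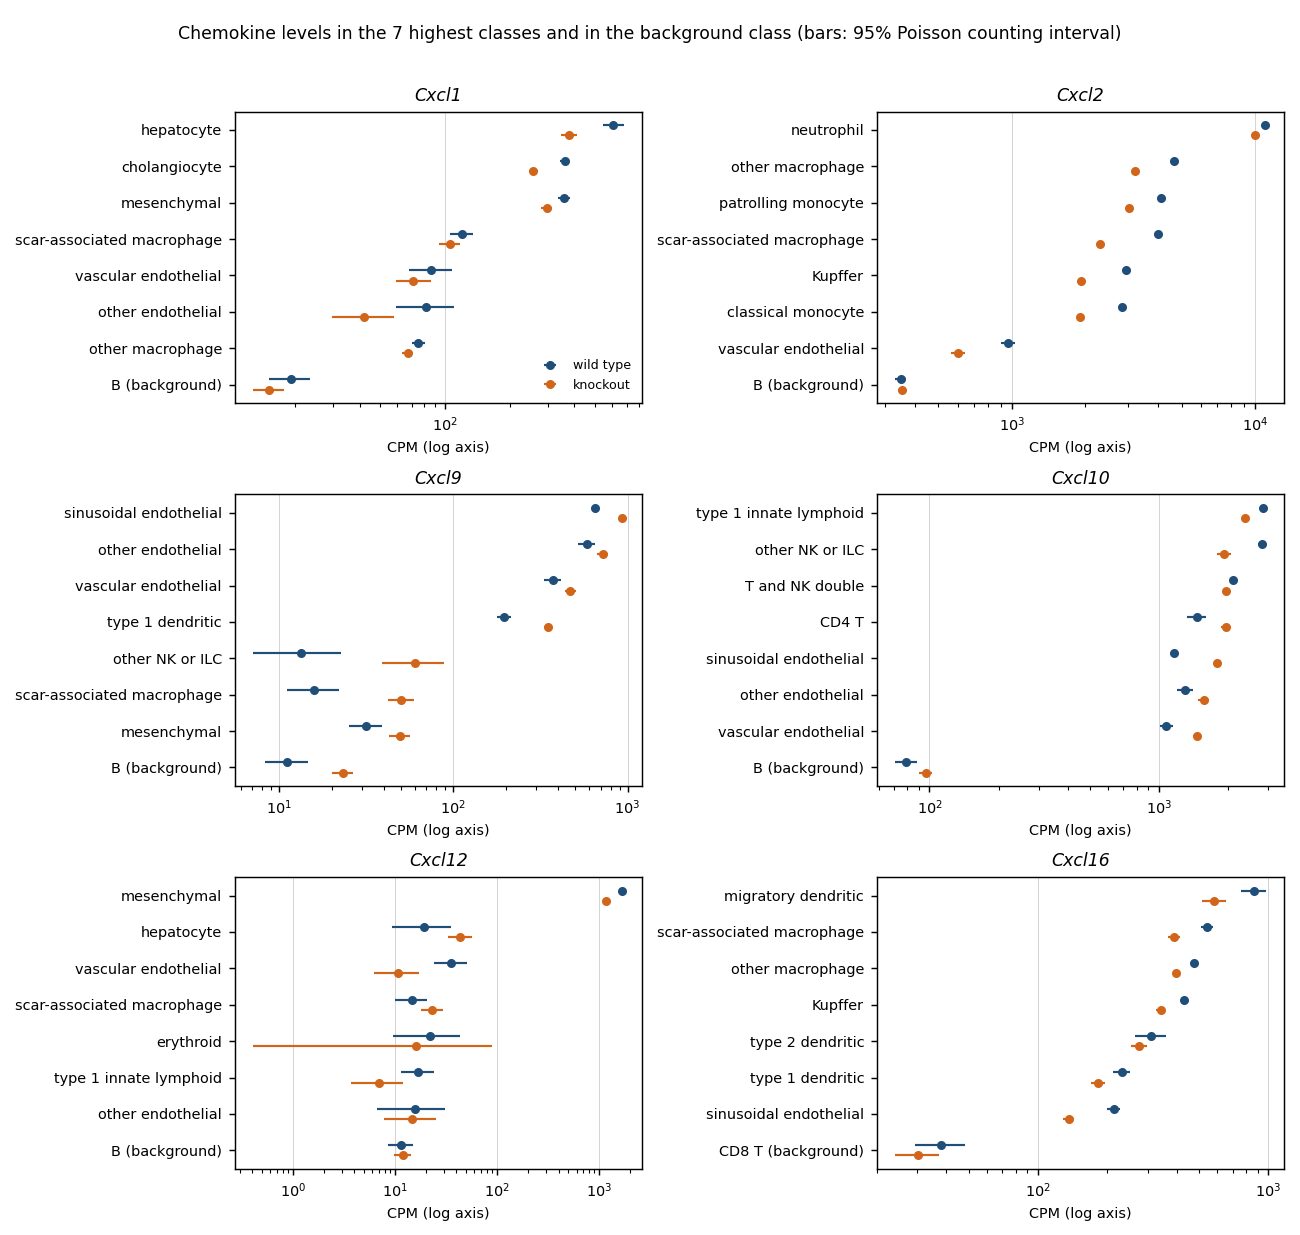
CPM (log axis) of each of the 6 ligands in its 7 highest classes and in its background class, wild type in blue and knockout in orange, with 95% Poisson counting intervals. Cxcl2 is lower in the knockout in each myeloid class shown and nearly equal in B cells (350 and 353 CPM), Cxcl9 and Cxcl10 are higher in the 3 endothelial classes, and Cxcl12 in mesenchymal cells is far above every other class.

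Cxcl9 was a product of endothelium. Sinusoidal endothelial cells, the fenestrated lining of the liver capillaries, had 655 and 931 CPM (log2 0.51, 0.45 to 0.57). Endothelial cells that passed neither subclass had 582 and 719 CPM (log2 0.30), and vascular endothelial cells 373 and 469.8 (log2 0.33). The 3 endothelial classes held 55.5% and 57.9% of all Cxcl9 UMIs. The only other class above 100 CPM was the type 1 dendritic class, the Xcr1 and Clec9a cells that cross-present antigen, at 196 and 349 CPM (log2 0.83, 0.68 to 0.99). All 4 classes were higher in the knockout.

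The same direction appeared where Cxcl9 was at the level of free RNA. Of the 23 classes with enough UMIs (20 over both libraries), 20 had a ratio above 0 and 9 were at least 2-fold higher in the knockout, where 5.96% of all gene and class pairs were, but B cells, the background, were among the 9, at 11.1 and 23.2 CPM. Kupffer cells were the only one of the 9 above background in both libraries, at 18.2 and 37.1 CPM (log2 1.02), and 5.81% of all genes tested in that class were as much higher. With cells assigned to the nearest class profile this ratio was 0.19 and no longer 2-fold. Outside the endothelial and type 1 dendritic classes, the median of 23 classes was 12.96 against 23.7 CPM. The 7 sinusoidal markers moved with it, with medians of 96.9 and 128 CPM, higher in the knockout in 19 of the 23 classes. Their part in the Cxcl9 values of these classes was not tested.

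**Figure D3:**
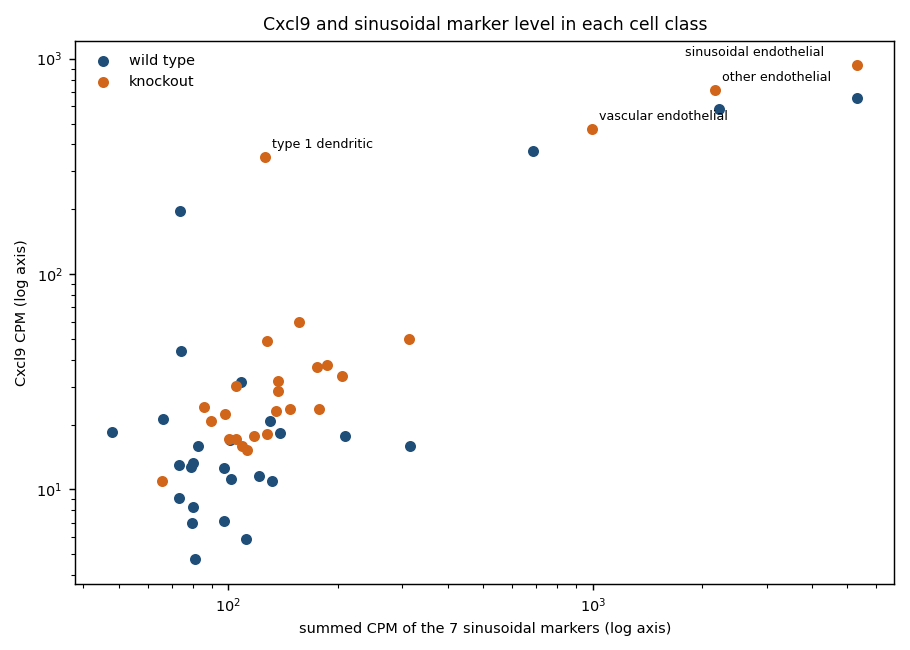
Cxcl9 CPM against the summed CPM of the 7 sinusoidal markers, both on log axes, 1 point per class and library (blue wild type, orange knockout; knockout erythroid cells, with no Cxcl9 UMI, are not drawn). The type 1 dendritic class has 196 and 349 CPM of Cxcl9 at 73.6 and 126 CPM of the markers, and the 3 endothelial classes lie at the upper right.

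The share of sinusoidal cells with a Cxcl9 UMI was 57.8% and 70.3%, and 32.5% and 41.3% after thinning, at median depths of 5014 and 6751. B cells had 4.14% and 8.49%, and 1.12% and 2.12% after thinning. Per cell the level was uneven: the median sinusoidal cell had 1.96 and 4.41 Cxcl9 UMIs per 10000 UMIs of the cell, and the 95th percentile 22.4 and 28.6. Cells with Cxcl9 more often had Cxcl10 as well, 73.9% and 84.8% against 33.2% and 42.0% of those without. The cells with Cxcl9 were also the deeper ones, with medians of 6423.5 and 7763 against 2587 and 3266 UMIs.

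Cxcl10, the other Cxcr3 ligand followed here, was spread over more senders and stood above background in 23 of 27 classes. Its highest levels were in innate lymphocytes, at 2834 and 2359 CPM in the type 1 innate lymphoid class (log2 -0.26, -0.32 to -0.21). The remaining NK and innate lymphoid cells had 2815 and 1917 CPM (log2 -0.55, -0.67 to -0.44), and the class passing the T and NK gates 2101 and 1962 (log2 -0.10). Sinusoidal endothelial cells had less in the wild type but approached these classes in the knockout, with 1159 and 1792 CPM (log2 0.63, 0.59 to 0.67).

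The direction of the Cxcl10 ratio differed among classes. It was below 0 in 4 of 4 NK and innate lymphoid classes, above 0 in 3 of 3 endothelial and 4 of 4 dendritic classes, and split 2 to 2 among T cell classes. In the class passing the T and NK gates it was 0.42 with 1 marker more in the gate, so the direction there depended on the gate, and the plasmacytoid dendritic ratio also turned, as given below. CD4 T cells had 1459 and 1954 CPM and CD8 T cells 855 and 758. The share of all Cxcl10 UMIs held by the T, NK and innate lymphoid classes was 39.0% against 23.3%, and the endothelial share 16.3% and 27.9%. These classes also held different shares of all UMIs, 11.7% and 9.39% for the lymphoid and 7.77% and 10.1% for the endothelial ones. The opposite directions could not be tested with 1 library per genotype.

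Dendritic cells held the member pairs that were at least 2-fold different and above background, other than Cxcl9 in Kupffer cells. Type 1 dendritic cells had 246 and 526 CPM of Cxcl10 (log2 1.09, 0.96 to 1.23), and their thinned share with a UMI was 15.2% and 29.7%. Of all genes tested in these cells, 7.26% were at least 2-fold higher, and the ratio was 0.70 with the nearest class profile. Plasmacytoid dendritic cells had 152 and 334 CPM (log2 1.11, 0.69 to 1.61), with 77.1% and 77.8% of the UMIs in the 5 richest cells and 5.44% of all genes as much higher. Their ratio was -0.26 without the 5% of cells with most UMIs, so its direction rests on few cells. In migratory dendritic cells, the Ccr7 class, the level was 121 and 341 CPM, but the wild-type interval of 84.99 to 168 overlapped that of B cells, 71.0 to 87.9.

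Detection of Cxcl10 was 83.9% and 82.6% in the type 1 innate lymphoid class, and 64.4% and 61.5% after thinning, at median depths of 6986 and 8430. In B cells it was 22.6% and 34.0%, and 7.84% and 8.06% after thinning. The B cell level itself was 79.1 and 96.3 CPM. Cxcl10 overlaps Art3 on the opposite strand, and the strand rule of the counting is not given in the sources used here.

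Cxcl12 stood above background in 1 of the 27 classes. Mesenchymal cells, the class of collagen-producing stromal cells, had 1690.1 and 1177 CPM (log2 -0.52, -0.58 to -0.46) and held 60.4% and 58.0% of all its UMIs. The other 26 classes lay between 5.7 and 43.7 CPM, and none was above the B cell background of 11.4 and 12.0 in both libraries. Vascular endothelium was the highest of them in the wild type, at 35.6 CPM. Its log2 ratio was -1.70, and 0.31 with the nearest class profile. After thinning, 70.3% and 60.4% of mesenchymal cells had a Cxcl12 UMI, at median depths of 10604 and 13699.5 UMIs, and 1.12% and 1.60% of B cells. The median mesenchymal cell had 15.4 and 9.31 Cxcl12 UMIs per 10000 UMIs of the cell, and the 5 richest cells held 9.54% and 10.5%. The 11 mesenchymal markers of the gate were lower as well in this class, 19462 against 13748 CPM, and their part in the Cxcl12 ratio was not tested. Cxcl12 was also among the 10 genes that led this class by fold over the others, though it was not a marker of the gate.

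Cxcl16 was a macrophage and dendritic ligand. Migratory dendritic cells were highest, at 863 and 582 CPM (log2 -0.57, -0.81 to -0.32) from 29 and 48 cells. Scar-associated macrophages had 541 and 391 CPM (log2 -0.47), the macrophages of neither subclass 475 and 399 (log2 -0.25), and Kupffer cells 432 and 341 (log2 -0.34). The 3 macrophage classes held 55.2% and 47.1% of its UMIs. Of the 13 classes above the CD8 T cell background of 38.0 and 30.2 CPM, 12 had a ratio below 0, and none of these differed 2-fold.
Endothelial and epithelial cells had intermediate levels, with 213 and 136 CPM in sinusoidal endothelium (log2 -0.65, -0.76 to -0.53) and 201 and 157 in cholangiocytes. The thinned share was 38.3% and 33.7% in scar-associated macrophages, against 2.47% and 3.68% in CD8 T cells. Their raw shares were 87.4% and 92.8%, and 19.8% and 20.7%, at median depths of 10119 and 14817, and 6247 and 7951. Cxcl16 overlaps Zmynd15 on the opposite strand, with the same limit as for Cxcl10.

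The receptors divided the leukocytes. Cxcr2, the receptor for Cxcl1 and Cxcl2, stood above background in neutrophils alone among the 27 classes, at 191 and 245 CPM (log2 0.36, 0.21 to 0.51). No other of the 27 classes exceeded 4.1 CPM. The few basophils or mast cells, outside this count, had 20.04 and 88.6 CPM from 2 and 6 UMIs (knockout interval 32.5 to 193), with a UMI in 5 of 11 knockout cells. Neutrophils held 72.4% and 63.8% of its UMIs, and mixed or unassigned cells 17.7% and 22.4%. A UMI was found in 38.0% and 51.7% of neutrophils, and in 21.2% and 26.2% after thinning, against 1.18% and 0.793%, and 0.172% and 0.343%, of B cells. Neutrophils were thus at once the cells with the receptor and the cells with most Cxcl2, and 438 of 1163 wild-type and 477 of 931 knockout neutrophils had UMIs of both.

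**Figure D4:**
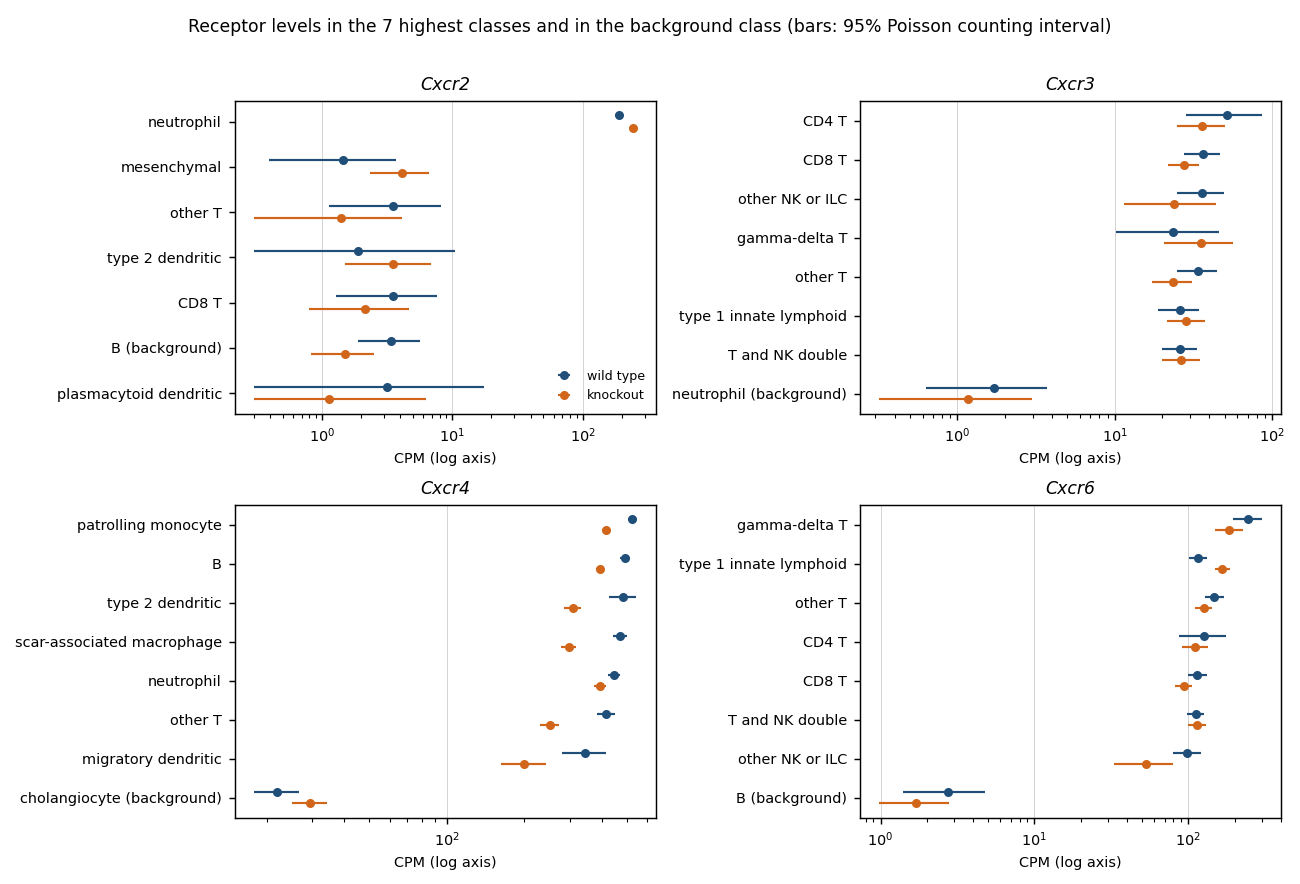
CPM (log axis) of the 4 receptors in their 7 highest classes and in the background class, wild type in blue and knockout in orange, with 95% Poisson counting intervals. Cxcr2 is highest in neutrophils among the classes drawn, the Cxcr3 intervals of neighbouring lymphoid classes overlap, and Cxcr4 is lower in the knockout in each of the 7 highest classes.

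Cxcr3, the receptor for Cxcl9 and Cxcl10, was on T, NK and innate lymphoid cells at low counts. CD4 T cells had 51.7 and 35.9 CPM from 14 and 34 UMIs, CD8 T cells 36.2 and 27.7, and the type 1 innate lymphoid class 25.9 and 28.5. The intervals of neighbouring classes overlapped, so no order among the lymphoid classes was resolved. Type 1 dendritic cells, which also had Cxcl9 and Cxcl10, carried 18.7 and 18.0 CPM, and plasmacytoid dendritic cells 22.2 and 11.4. Neutrophils, the background, had 1.71 and 1.16.
Of the 10 classes above this background, 7 had a Cxcr3 ratio below 0 and 3 above, and none of those with at least 20 UMIs reached 2-fold. Among CD8 T cells 21.4% and 18.3% had a UMI, and 3.70% and 3.01% after thinning, which is near 1 UMI in the cells concerned. Neutrophils had 0.516% and 0.430%, and 0.275% and 0.220% after thinning, at their lower depth.

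Cxcr4, the receptor for Cxcl12, was the broadest of the 4 when each was set against its own background class. It stood above the cholangiocyte background of 21.9 and 29.4 CPM in 24 classes. Cholangiocytes were deeper than most classes, and the part of depth in this background was not tested. Patrolling monocytes, the nonclassical cells that crawl along vessel walls, had 526 and 416 CPM (log2 -0.34, -0.42 to -0.26), B cells 494 and 394 (log2 -0.33) and neutrophils 447 and 395 (log2 -0.18). Scar-associated macrophages had 471 and 298 CPM (log2 -0.66, -0.80 to -0.53), and T cells of no subclass 417 and 252 (log2 -0.73). The ratio was below 0 in 22 of 27 classes and in all 18 macrophage, monocyte, neutrophil, dendritic, T, NK and innate lymphoid classes, and it reached 2-fold in none. The few basophils or mast cells had 341 and 458 CPM from 34 and 31 UMIs, and the knockout value was above that of patrolling monocytes. The mesenchymal cells that held Cxcl12 had 48.7 and 53.2 CPM of its receptor. Erythroid cells, which were not above background in both libraries, had more, at 93.1 and 64.3 CPM and median depths of 1126 and 1581.5 UMIs. The part of free RNA in the mesenchymal value was not tested.
A Cxcr4 UMI was found in 82.2% and 81.0% of patrolling monocytes, and in 43.3% and 33.9% after thinning. Cholangiocytes had 38.0% and 42.3%, and 0.752% and 2.08% after thinning, at median depths of 16293.5 and 15265 against 4743 and 5971. Among neutrophils before thinning, 65.4% and 65.1% of those with Cxcr2 had Cxcr4, against 57.4% and 58.9% of those without. The part of depth in this difference was not tested.

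Cxcr6, the receptor for Cxcl16, was highest in gamma-delta T cells, at 244 and 185 CPM (log2 -0.40, -0.85 to 0.05) from 56 and 61 cells, and the ratio was 0.19 with the nearest class profile. The type 1 innate lymphoid class had 116 and 166 CPM (log2 0.52, 0.26 to 0.78), T cells of no subclass 148 and 126, and CD8 T cells 114 and 93.4. Conventional NK cells differed from the innate lymphoid class, with 6.34 and 8.76 CPM from 4 UMIs in each library, near the B cell background of 2.73 and 1.71. The T, NK and innate lymphoid classes together held 74.9% and 71.9% of its UMIs. The other NK and innate lymphoid cells had 98.3 and 52.8 CPM (log2 -0.85, -1.64 to -0.22), in the opposite direction to the type 1 class. After thinning, 21.4% and 18.0% of gamma-delta T cells had a UMI, against 0.517% and 0.114% of B cells, and the raw shares were 58.9% and 54.1%, and 1.01% and 0.906%. Cxcr6 overlaps Fyco1 on the opposite strand, with the limit given above.

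Across all classes, 202 of the 270 pairs had at least 20 UMIs. Of these, 17 were at least 2-fold higher in the knockout (8.42%) and 6 at least 2-fold lower (2.97%), where 5.96% and 2.55% of the 249553 pairs of any gene with a class passed the same limits, 8.51% either way. The median log2 ratio of the 202 pairs was -0.11, while the median over all genes of a class ran from -0.04 to 0.17 outside erythroid cells, where it was -0.72. Of the 17 higher pairs, 9 were Cxcl9 and 14 were not above background in both libraries, and none of the 6 lower pairs was. A pair that was at the background level in either library could not pass this margin, so the margin leaves out losses or gains of that kind. Those 6 were Cxcl2 in erythroid cells, Cxcl12 in vascular endothelium and the type 1 innate lymphoid class, Cxcl16 in plasmacytoid dendritic cells, Cxcr2 in B cells and Cxcr3 in scar-associated macrophages. The 5 higher pairs of neither Cxcl9 nor Cxcl10 without that margin were Cxcl2 in other NK or innate lymphoid cells, Cxcl12 in hepatocytes, Cxcl16 in gamma-delta T cells and Cxcr2 in mesenchymal cells and other macrophages. Among the 107 pairs above background, 3 were at least 2-fold higher and 0 lower, 34 ratios were above 0 and 73 below, and the median was -0.22. Cxcl9 alone had 7 of 7 ratios above 0, Cxcl10 15 of 23, and the remaining ligands and Cxcr4 mostly negative ones, 10 of 11 for Cxcl2 and 21 of 24 for Cxcr4.

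**Figure D5:**
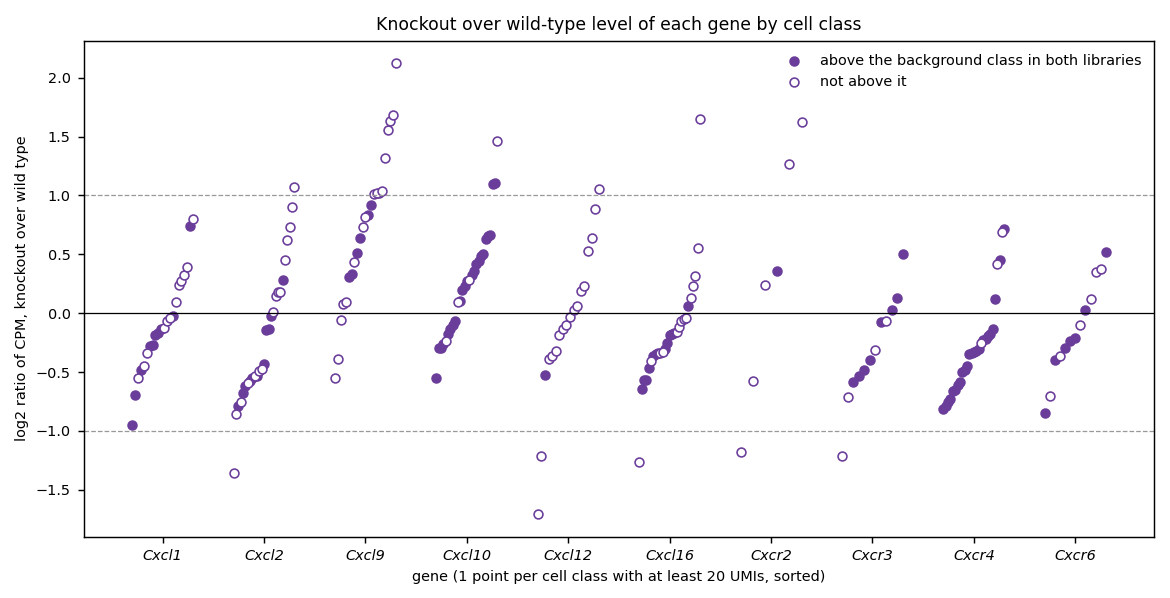
Log2 ratio of CPM, knockout over wild type, for each gene in each class with at least 20 UMIs; filled points are above the background class in both libraries, and dashed lines mark 2-fold. Filled Cxcl9 points all lie above 0, filled Cxcl2, Cxcl16 and Cxcr4 points mostly below, and nearly all points beyond the dashed lines are open.

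Of the other CXC ligands and receptors, 12 were measured and Cxcl11 is not analysed here. They gave 100 pairs with enough UMIs, 12 at least 2-fold higher in the knockout and 29 lower, against the 5.96% and 2.55% of all genes. Of the 29 lower pairs 20 were Cxcl13, the B cell attractant, and of the 12 higher pairs 7 were Cxcr5. No background class was set for these genes, and the part of free RNA in these counts was not tested. In Kupffer cells Cxcl13 had 1031 and 117 CPM (log2 -3.14, -3.25 to -3.04), and it was lower in 20 of 20 classes. Its receptor Cxcr5 was a B cell gene at 459.9 and 507 CPM. The neutrophil ligand Cxcl5 shared some of the Cxcl1 senders, with 97.1 and 54.7 CPM in cholangiocytes and 34.3 and 19.2 in mesenchymal cells. The 5 richest cholangiocytes held 65.9% and 54.7% of the Cxcl5 UMIs of their class. The hepatocyte class had only 1.94 and 3.64 CPM of Cxcl5. Cxcl3, whose promoter window also holds 3 kappaB matches, had 25.7 and 30.8 CPM in neutrophils and was also seen in knockout CD4 T cells, where 5 of 135 cells held all 40 UMIs and 1 cell held 27 of them, against 0 UMIs in the wild type. Cxcr1 had only 27 and 13 UMIs in neutrophils. Pf4 (platelet factor 4) and Ppbp (pro-platelet basic protein) led the platelet class, with 30479.7 and 21629 CPM of Pf4 and 14815 and 12601 of Ppbp in 8 and 6 platelets. Among the 27 classes Pf4 was highest in macrophages, at 257 and 160.1 CPM in Kupffer and 192 and 203 in scar-associated cells. The scavenging receptor Ackr1 had its highest levels in sinusoidal cells, at 66.2 and 33.9 CPM, and vascular endothelial cells, at 65.4 and 31.9. Their intervals overlapped. Ackr3, which takes up Cxcl12, had 83.7 and 25.02 CPM in vascular endothelium and 17.3 and 19.5 in mesenchymal cells, and the 18 wild-type mesothelial cells had 174 CPM from 49 UMIs. Cxcl14 had 67.5 and 74.0 CPM in mesenchymal cells, and Cxcl15 and Cxcl17 reached 20 UMIs in no class.

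The 8 genes that induce or process these ligands gave 207 pairs with enough UMIs, of which 6 were at least 2-fold higher in the knockout (2.90%) and 3 lower (1.45%), both below the 5.96% and 2.55% of all genes. Ifng, the interferon-gamma gene whose product induces Cxcl9 and Cxcl10, was highest in conventional NK cells at 837 and 1034 CPM, with 572 and 403 in the type 1 innate lymphoid class. Tnf in macrophages of neither subclass was 227 and 111 CPM (log2 -1.03), and Il1b in neutrophils was 7682 and 8979.9. Adam17 was highest in patrolling monocytes at 429 and 378 CPM and Adam10 had 194 and 204 in classical monocytes. Dpp4, which trims the ends of Cxcl9, Cxcl10 and Cxcl12, was a sinusoidal gene at 274 and 335 CPM. The RNA decay factors Zc3h12a and Zfp36, which shorten the life of chemokine transcripts, had 127 and 183, and 2022 and 2258 CPM, in neutrophils.

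For each gene the 3 genes of most similar profile were found by Pearson's r of log2(CPM + 10) over 40 points among 7725 genes. The points were the 20 classes with at least 50 cells in both libraries, and class markers were left out. Migratory dendritic cells, CD4 T cells and the remaining NK and innate lymphoid cells had too few cells. The profiles therefore lack these classes, which were among the highest for Cxcl16, Cxcr3 and Cxcl10. The points share library and depth, and r is given as a description. Cxcl1 was nearest to Gclm (0.894), H6pd and Map1lc3a, and Cxcl2 to C5ar1 (0.962), Arg2 and Igsf6. Cxcl9 was nearest to Clec1a (0.929), Plpp1 and Dnase1l3, and Cxcl10 to Camk2g (0.883), Gbp5 and Herc6. Cxcl12 was nearest to Olfml1 (0.975), Lum and Gas1, and Cxcl16 to Cttnbp2nl (0.885), Frmd4b and Asah1. Among receptors, Cxcr2 was nearest to Ankrd22 (0.989), Il1f9 and Ly6g, Cxcr3 to Cd226 (0.953), Ptpn22 and Fasl, Cxcr4 to Cd53 (0.920), Apbb1ip and Nfkbid, and Cxcr6 to Skap1 (0.987), Cd96 and Camk4. The values of r were highest for the genes held by 1 class or 1 lineage, Cxcr2, Cxcr6 and Cxcl12, and lowest for Cxcl10 and Cxcl16.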

How the data were processed

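The deposited files hold raw UMI counts per gene and barcode for 1 wild-type and 1 knockout library, which Cell Ranger 7.0.1 wrote for the authors, per the file headers, from Chromium 3′ v3 libraries per the labels' protocols. The submitters' processing notes name Cell Ranger 3.1.0, Seurat and mm10. The authors' gene annotation, their handling of introns and any filter on cells before deposit are not given in the sources used here. Library totals were 82499307 and 118226367 UMIs.

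Barcodes under 200 genes or above 20% mitochondrial UMIs were dropped, leaving 11370 and 12723. A marker counted as raised in a cell with a UMI of it and at least 2 times its mean share. A class needed 3 raised markers. The gamma-delta T, natural killer and type 1 innate lymphoid subclasses needed 2 of their own markers. The CD4 and CD8 T subclasses needed only 1, which for CD4 was Cd4 itself. T cells in which it was not raised could fall among those of no subclass. Cells passing gates of 2 lineages (979 and 1095) were left out as mixed, in place of a doublet caller, and 1347 and 1586 cells passed none. Of these, 1018 and 1158 were 1 marker short, and 1290 and 1409 of the 9044 and 10042 gated cells stood exactly at the gate. Median raised markers were 3 to 9 of the cell's own panel and 1 to 2 of any other lineage. Epithelial and stromal panels were merged as lineages after the mixed cells were seen. Background classes were also chosen after values were seen.

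UMIs were summed by class and library and scaled to 1e6 (CPM, exact Poisson intervals). Log2 ratios had 1 count added and exact conditional intervals. Pairs under 20 UMIs were not called. Shares were recomputed after thinning to 1000 UMIs, which left out 1058 and 735 cells. Positions are from GENCODE M21 on GRCm38. The log2 ratios and their intervals were tested on simulated sums of the sinusoidal endothelial, neutrophil and CD4 T classes. Those sums held Poisson counting error only, without uneven levels among cells. Thinning was checked for its UMI total, and the gates, background calls and profile likeness were not tested this way. Python 3.11.15, numpy 2.4.6, scipy 1.17.1, pandas 2.3.3 and matplotlib 3.10.9 were used. The members, gene lists and markers were chosen with earlier results of these data known. Named genes are the members, the other CXC genes, 8 inducing or processing genes and the 3 genes most like each member.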

Additional observations from a re-analysis of the deposited data

How the results depend on the processing

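The count of 17 gene and class pairs at least 2-fold higher in the knockout was 5 with cells thinned to 1000 UMIs, 11 with 1 marker more in the gate and 11 with median of ratios scaling. The 6 lower pairs became 11 when cells were assigned to the nearest class profile and 11 when at least 5 UMIs were asked for. Thinning removes UMIs and a minimum of 5 UMIs admits more pairs, so the pairs tested need not be the same. The number of pairs tested and the share of all genes called under each alternative are not given here. These counts therefore do not show whether the members changed more than other genes. Pairs with a UMI in at least 10% of cells in both libraries numbered 161, and 88 after thinning. Reversals among called pairs came mostly with the nearest class profile: Cxcl10 in plasmacytoid dendritic cells (-0.18, and -0.26 without the 5% of cells with most UMIs), Cxcl12 in hepatocytes (-0.19) and vascular endothelium (0.31), Cxcl16 in gamma-delta T cells (-0.21), Cxcl2 in other NK or innate lymphoid cells (-0.63, and -0.51 without the 5 richest cells), Cxcl9 in scar-associated macrophages (-0.0018) and Cxcr2 in B cells (0.13, and 0.63 after thinning). The causes were not tested. Of 47 pairs followed, 33 kept their sign in every alternative computed for them, and 1 of the 23 past 2-fold stayed past it in all. That pair was Cxcr2 in mesenchymal cells, at 4 and 16 UMIs, with 9 alternatives computed. An alternative that left a pair under 5 UMIs was not computed for it. Median of ratios scaling subtracted a class value of -0.03 to 0.24 from the log2 ratios. The value subtracted was -0.84 in erythroid cells, so the ratios there rose. The profile gave the same class for 75.5% and 80.8% of gated cells. Leaving out barcodes found in both libraries, an alternative chosen after seeing the data, left the counts at 17 and 6. No paired analysis was possible because each genotype has 1 library and the labels carry no replicate numbers, and for the same reason no replicate could be left out. Cxcr3 had at most 83 UMIs in any class above its background, and its ratios in CD4 and gamma-delta T cells changed sign under at least 1 alternative.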
